A study of Mus musculus with 4 samples.

Results

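The integrated stress response is described here through 10 genes of its transcriptional arm: the transcription factors Atf4, Atf5, Atf3 and Ddit3 (CHOP), the stress-induced regulators Nupr1 and Trib3, the effectors Chac1, Sesn2 and Gdf15, and the feedback phosphatase subunit Ppp1r15a (GADD34). A probe was a member if the gene name given for it on the vehicle array was one of these symbols, which selected 11 probes of 55681 on the array and 10 of 35753 gene names. Atf4 had 2 probes and each other gene had 1. The genes were named as pathway members and not by a threshold on these arrays. They were nevertheless chosen with earlier results of the same arrays known, so the counts below are not those of a set chosen blind to the data.

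In the integrated stress response, kinases that sense endoplasmic reticulum stress, lack of amino acids, haem deficiency or mitochondrial damage, or double-stranded RNA phosphorylate the initiation factor eIF2, which lowers general translation while the Atf4 messenger RNA is translated better. ATF4 protein then activates genes for amino acid supply and further regulators, among them Ddit3, Trib3, Chac1, Atf3 and Atf5, and Ppp1r15a brings a phosphatase to eIF2 that ends the signal. In the retina the pathway is known from models of photoreceptor degeneration and of optic nerve injury, where prolonged activity is associated with cell death.

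The samples were retinas grown in suspension (3D-retinas) from 1 line of mouse induced pluripotent stem cells that carries a green fluorescent reporter driven by Nrl, a rod gene. Treatment began on differentiation day 23 and RNA was taken on day 25. One group received ethanol as vehicle, another 5 µM of 4-hydroxytamoxifen (4-OHT), the active form of tamoxifen, and the remaining groups that dose of 4-OHT together with vitamin E, a lipid-soluble antioxidant, at 400 µM or with lutein, a carotenoid of the macula, at 200 nM. Each group was 1 one-colour array of 50 ng RNA from 24 pooled 3D-retinas, so no difference below has a replicate check, none has a p-value, and the spread between cultures is unknown. No group received vitamin E or lutein without 4-OHT.

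Signals are given as scaled signal, the processed intensity of a probe divided by the 75th percentile of gene spots on its array (497.8 to 564.7 intensity units). Differences are log2 differences of scaled signal between arrays, and 2-fold was the fixed size for counting a gene. The error that could be measured was technical: over 253 probes with 10 or more spots, the SD of a log2 difference between arrays that spot noise gives for a single spot was 0.11 to 0.13. All 11 member probes were well above background on all 4 arrays and none was flagged as an outlier spot. Scaled signals compare arrays for 1 probe and do not rank genes by abundance. In bulk RNA, fewer cells of a type and less RNA per cell cannot be told apart. All 9 rod markers were well above background on all arrays, which fits the label of retinal tissue. The leukocyte marker Ptprc and the pigment epithelium marker Rpe65 were never well above it. Other markers of those cell types were: Csf1r, Itgam, Tyr, Dct and Mitf on all 4 arrays, and Tmem119 on all but the 4-OHT array.

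The promoters are shown first because ATF4 and CHOP are known to act on genes of this pathway through a composite C/EBP-ATF element. Whether the element had a part in the member differences was not tested. Windows from 250 bases before to 50 bases after the start site were taken from RefSeq (build GRCm38.p6), where all 10 members were found with 12 windows. Both strands were searched for the element's core TGATGNAA, for the palindromic cyclic AMP response element TGACGTCA, for the AP-1 site TGACTCA and for the ER stress element. The core was present in 4 of the 10 members, Atf3, Chac1, Trib3 and Nupr1, against 4.51% of 27025 genes. In the 3 of them where it lay before the start site it was on the opposite strand to the gene, so the capitals below read as its reverse complement, with neighbouring bases in lower case and each line written 5′ to 3′ on the strand of the gene.
Atf3, chr1:191183416-191183463, minus strand: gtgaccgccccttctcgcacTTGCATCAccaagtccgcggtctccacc
Chac1, chr2:119351029-119351076, plus strand: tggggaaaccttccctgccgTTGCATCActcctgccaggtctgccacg
Nupr1, chr7:126625553-126625600, minus strand: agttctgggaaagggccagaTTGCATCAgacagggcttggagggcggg
In these 3 windows all 8 letters of the match were the same. Counted from the start site, the match lay at bases -110 to -103 in both Atf3 and Nupr1 and at -193 to -186 in Chac1, whereas in Trib3 it lay after the start site, at bases 15 to 22, and is not printed.

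Ppp1r15a held the cyclic AMP response element at bases -12 to -5 (2.03% of all genes hold one), and Ddit3 held an AP-1 site at -242 to -236 (5.95% of all genes). They are shown because they are the members' only matches to those motifs, with the match in capitals.
Ppp1r15a, chr7:45526269-45526300, minus strand: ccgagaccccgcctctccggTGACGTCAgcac
Ddit3, chr10:127290543-127290577, plus strand: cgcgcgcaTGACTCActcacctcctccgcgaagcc
No member's window held more than 1 of the motifs searched, so no matches overlapped, and 0 of 10 members held the ER stress element (0.137% of all genes). Atf4, Atf5, Gdf15 and Sesn2 had no match to any of these letters in the window. A match describes letters in a window and was not measured as a binding site here.

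Member genes were higher on the 4-OHT array than on the vehicle array. Of the 10 genes, 9 exceeded vehicle by 2-fold or more and 0 lay below it by as much, against 7.75% of 22084 measured genes that exceeded it, and all 10 differences were above the spot SD. The median log2 difference was 2.57 over the members and -0.06 over all measured genes. Over all genes the split was 1712 higher and 693 lower, and 1192 higher and 1647 lower on spike-in scaling, under which the same 9 members were counted. With vitamin E added, 9 of the 10 were at least 2-fold below 4-OHT alone, against 8.81% of 22160 genes. The split over all genes was 329 higher and 1952 lower, or 1368 and 1225 on spike-in scaling and 683 and 1540 under quantile normalization. With lutein added, 0 of 10 differed from 4-OHT alone by 2-fold, against 4.99% of 21997 genes that differed by 2-fold in either direction, 253 higher and 844 lower (400 and 568 on spike-in scaling).

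Atf4 encodes the central factor of the response, which is controlled mainly through translation. Its brighter probe (mm9 chr15:80087902-80087961, plus strand) gave a scaled signal of 297.2 in vehicle, 452.3 with 4-OHT, 309.8 with vitamin E and 461.0 with lutein. The 4-OHT and lutein arrays were both high and lay close together, and vitamin E lay close to vehicle. The difference between 4-OHT and vehicle was 0.61 on the log2 scale, or 1.52-fold, the smallest of the 10 members and the only one short of 2-fold. Atf4's second probe (chr15:80086639-80086698, plus strand) read 7.80, 13.5, 8.31 and 13.8 on the same arrays in the same order, a difference of 0.79 between 4-OHT and vehicle. The probes differed from each other by 0.18 in that comparison and by at most 0.19 in any, and both put the 4 arrays in the same order.

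Atf5, a paralogue of Atf4 with similar translational control, had a scaled signal of 20.03 in vehicle, 104.4 with 4-OHT, 29.3 with vitamin E and 86.4 with lutein (chr7:52067627-52067686, minus strand). It was 5.21-fold higher with 4-OHT, and 1.46-fold higher than vehicle with vitamin E. Unlike Atf4, its lutein value lay below the 4-OHT value, by 0.27 on the log2 scale. Atf3, a stress-induced factor of the same family that is also an immediate early gene, read 1.37 in vehicle, 28.4 with 4-OHT, 2.40 with vitamin E and 20.3 with lutein (chr1:192994547-192994606, minus strand). Its difference of 4.38, or 20.8-fold, was the largest of the members and ranked 20 of 22084 genes from the highest. Nupr1 followed at rank 21 and Gdf15 at rank 28, whereas Atf4 ranked 3234.

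Ddit3, the C/EBP-family factor CHOP that promotes cell death under lasting stress, read 4.86 in vehicle, 14.1 with 4-OHT, 4.90 with vitamin E and 13.0 with lutein. Its vitamin E and vehicle values could not be separated at the spot SD, with a log2 difference of 0.01. The array file gives no mm9 position for its probe. Trib3, a pseudokinase induced by ATF4 and CHOP that dampens their activity, had the same shape, with 6.10, 25.4, 6.26 and 24.3 in the same order of arrays (chr2:152163161-152163220, minus strand). Its difference between vitamin E and vehicle was 0.04, also within the spot SD, and that between lutein and 4-OHT was -0.06. Nupr1, a small chromatin-associated stress protein, read 0.33 in vehicle, 6.58 with 4-OHT, 0.83 with vitamin E and 3.67 with lutein (chr7:133766978-133767037, minus strand). It was 19.9-fold higher with 4-OHT and remained 2.52-fold above vehicle with vitamin E.

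**Figure D1:**
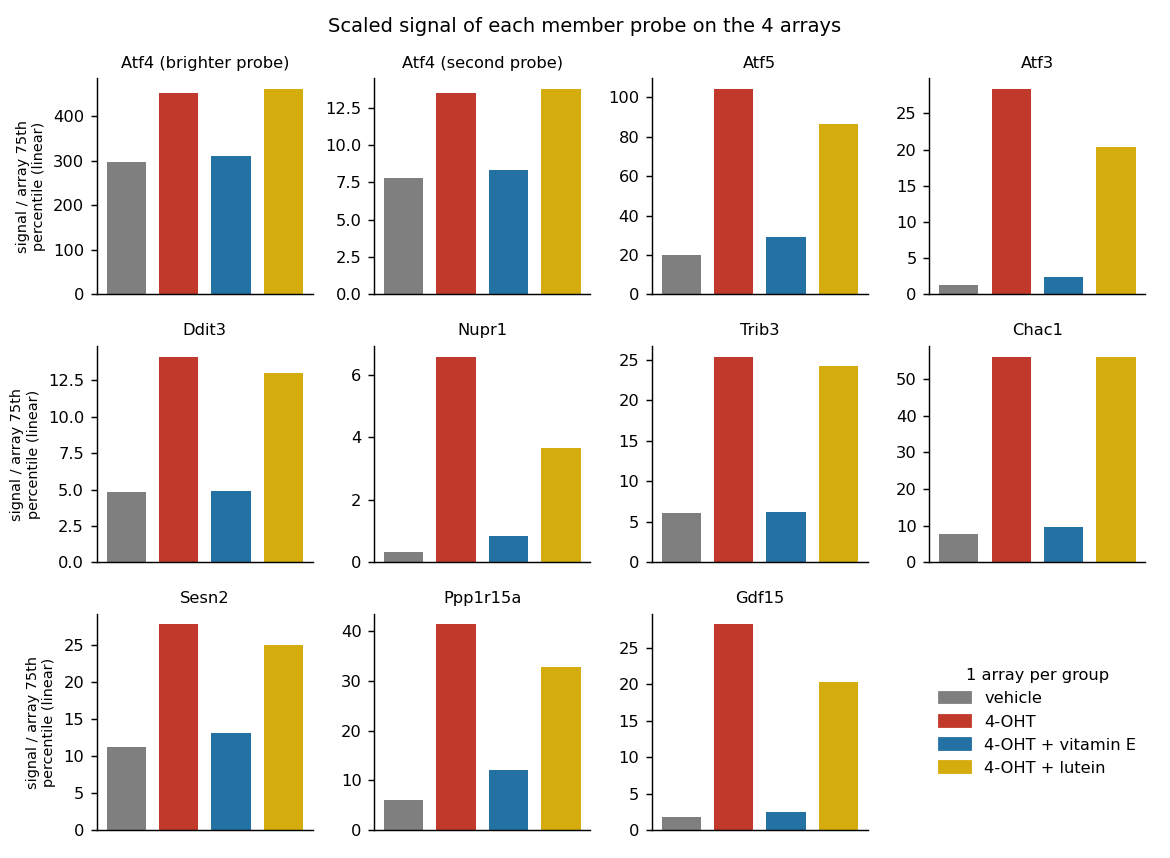
Scaled signal of each member probe (linear axis from 0, intensity divided by the array's 75th percentile, with its own scale in each panel) on the vehicle, 4-OHT, 4-OHT with vitamin E and 4-OHT with lutein arrays, 1 array per group. In every panel the 4-OHT and lutein bars are the tall pair and vehicle is the lowest, as for Chac1 at 56.2 and 56.1 against 7.70.

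Among the effectors, Chac1 encodes an enzyme that degrades glutathione. It read 7.70 in vehicle, 56.2 with 4-OHT, 9.71 with vitamin E and 56.1 with lutein (chr2:119179990-119180049, plus strand), which put 4-OHT and lutein at the same level, 7.30-fold and 7.29-fold above vehicle. Sesn2, which restrains mTORC1 when leucine is low and has antioxidant roles, read 11.2, 27.8, 13.1 and 25.0 in the same order of arrays (chr4:132048858-132048917, minus strand). After Atf4 it had the smallest difference from vehicle, 1.32 on the log2 scale, or 2.49-fold. Gdf15, a secreted cytokine of cell stress, read 1.83 in vehicle, 28.3 with 4-OHT, 2.50 with vitamin E and 20.3 with lutein (chr8:73153293-73153352, minus strand). It was 15.5-fold higher with 4-OHT and 11.3-fold lower again with vitamin E.

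Ppp1r15a, the feedback subunit that directs protein phosphatase 1 to eIF2, read 6.08 in vehicle, 41.3 with 4-OHT, 11.98 with vitamin E and 32.7 with lutein (chr7:52778320-52778379, minus strand). It was 6.79-fold higher with 4-OHT. With vitamin E it stayed 1.97-fold above vehicle, just short of the counting limit, and its log2 difference of 0.98 passed that limit when the arrays were scaled on spike-in probes or when the authors' value table was used.

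Vehicle was the lowest array for all 11 probes. For 9 of the 10 genes the arrays stood in the order vehicle, vitamin E, lutein, 4-OHT, and only for Atf4 did lutein exceed 4-OHT, by 0.03 on the log2 scale, which is within the spot SD. Several neighbours in that order could not be separated by the spot SD, namely vehicle and vitamin E for Atf4, Ddit3 and Trib3, and lutein and 4-OHT for Atf4, Ddit3, Chac1 and Trib3. When the arrays were scaled on spike-in probes, the order of lutein and 4-OHT turned for Ddit3, Chac1, Trib3 and Sesn2, with lutein higher by 0.06, 0.18, 0.12 and 0.04. On that scaling vitamin E stayed above vehicle for all 10 genes. This was fixed beforehand, because the scaling raised every vitamin E minus vehicle difference by the same amount. The order of vitamin E and vehicle turned for Ddit3, to -0.01 under quantile normalization and by less with median scaling. It also turned for Trib3, by less than 0.01 under normexp background correction.

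The comparison of vitamin E with 4-OHT alone asked how far these genes differed between those arrays. The median member difference was -1.93, against 0.08 over all measured genes. The members were lower by a fold of 11.8 for Atf3, 11.3 for Gdf15, 7.91 for Nupr1, 5.79 for Chac1 and 4.06 for Trib3. The fold was 3.56 for Atf5, 3.45 for Ppp1r15a, 2.89 for Ddit3, 2.12 for Sesn2 and 1.46 for Atf4. The comparisons with vehicle and with 4-OHT share the 4-OHT array, so the matching sizes of the 2 differences are not separate evidence. Sesn2, at -1.09, was the member nearest to the 2-fold limit, and on spike-in scaling it was -0.74 and no longer counted, which left 8 of 10.

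Measured on arrays without 4-OHT alone, vitamin E against vehicle showed what difference was left. Of the 10 genes 1, Nupr1, was at least 2-fold higher, against 1.09% of 21364 measured genes (233 higher and 423 lower, 320 and 323 on spike-in scaling, 262 and 312 under quantile normalization), and the median was 0.39 against -0.02 over all genes. Differences were above the spot SD of 0.11 for 7 genes. Nupr1 stood at 1.33, Ppp1r15a at 0.98, Atf3 at 0.81, Atf5 at 0.55, Gdf15 at 0.45, Chac1 at 0.33 and Sesn2 at 0.23. Nupr1 ranked 108 of 21364 genes from the highest and Ppp1r15a 246, whereas Ddit3 ranked 9660, near the middle of all genes.

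The comparison of lutein with 4-OHT alone asked the same for the lutein array. The median member difference was -0.21, against 0.08 over all genes. Differences were larger than the spot SD of 0.13 for 6 genes, all lower with lutein. Nupr1 was 1.79-fold lower, Atf3 1.40-fold, Gdf15 1.39-fold, Ppp1r15a 1.27-fold, Atf5 1.21-fold and Sesn2 1.11-fold lower. On spike-in scaling only the Sesn2 difference of these 6 turned its sign. The Atf5 difference, at -0.09, then lay within the spot SD, and that of Ppp1r15a, at -0.15, lay near it. Against vehicle, 9 of 10 members on the lutein array were 2-fold or more up, against 3.43% of 21352 genes, and the median was 2.27 against -0.01 over all genes. The fold was 14.9 for Atf3, 11.1 for both Gdf15 and Nupr1, 7.29 for Chac1 and 1.55 for Atf4.

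The vitamin E and lutein arrays, both with 4-OHT, were also compared directly. The supplements differ in structure (a chromanol against a carotenoid) and in dose, 400 µM against 200 nM, so the values are given side by side and are no comparison at a matched dose. On the vitamin E array 8 of 10 members lay 2-fold or more below their lutein value, against 3.66% of 21438 genes, and the median was -1.76 against 0.02 over all genes. The fold was 8.46 for Atf3, 8.15 for Gdf15, 5.78 for Chac1 and 4.41 for Nupr1. Sesn2, at -0.94, and Atf4, at -0.57, were the members short of 2-fold.

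**Figure D2:**
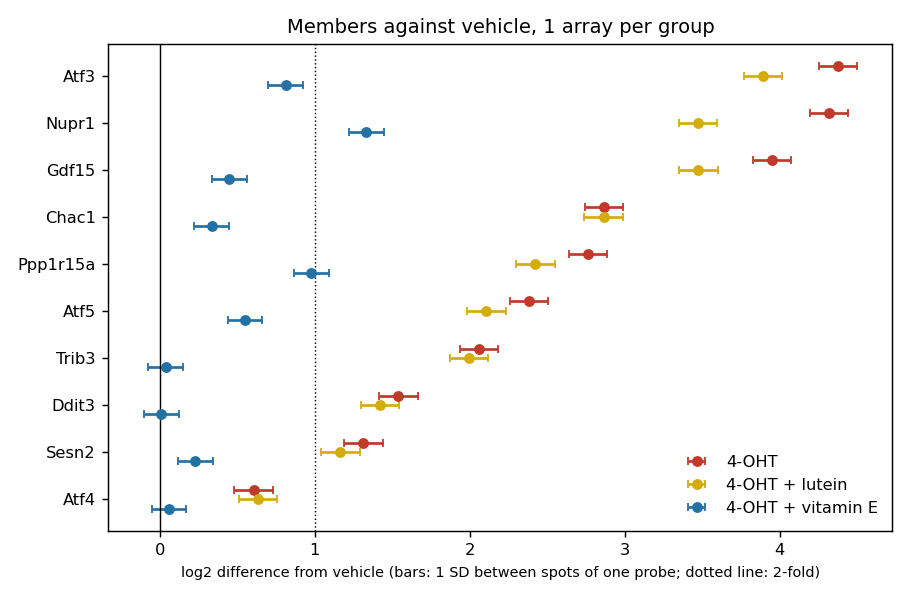
Log2 difference from vehicle for each member (brighter probe for Atf4), with points for 4-OHT, 4-OHT with lutein and 4-OHT with vitamin E, bars of 1 SD between spots of one probe, and a dotted line at 2-fold. Lutein points lie beside the 4-OHT points, and vitamin E points lie between 0.01 for Ddit3 and 1.33 for Nupr1.

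**Figure D3:**
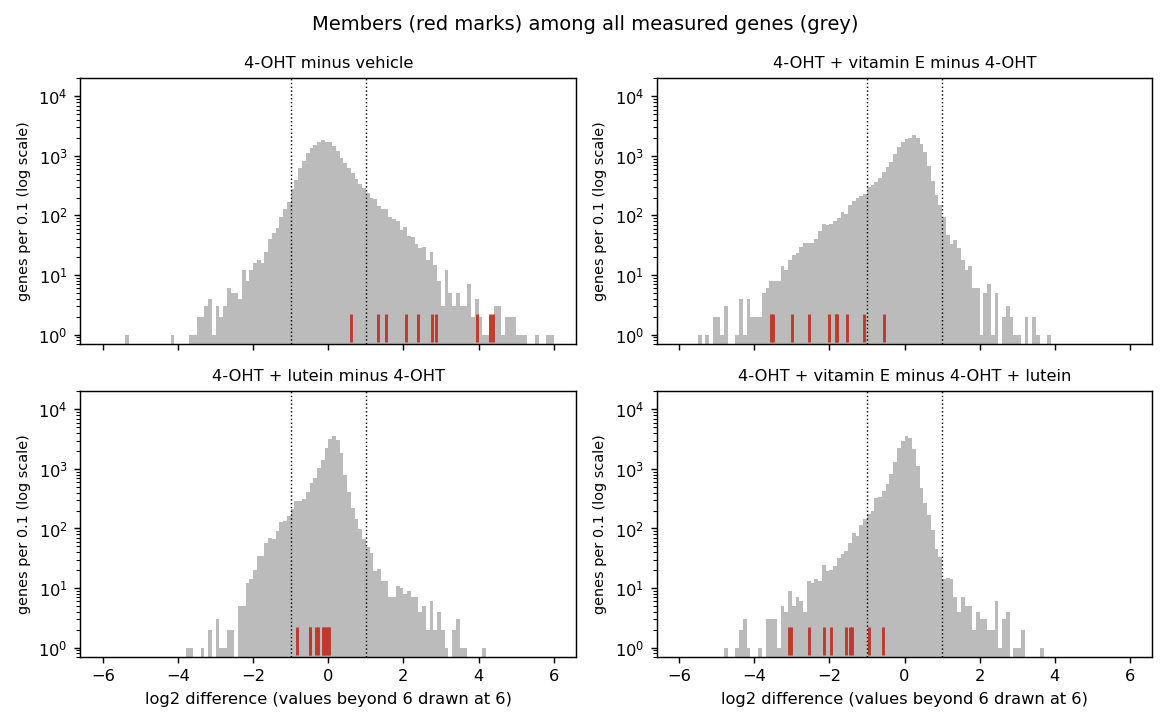
Distribution of log2 differences over all measured genes in 4 comparisons (grey, genes per 0.1 on a log axis, genes dim on 1 array at their bound), with the members as red marks and 2-fold as dotted lines. For 4-OHT minus vehicle the marks run from 0.61 to 4.38 in the upper part of the distribution, and for lutein minus 4-OHT they lie between -0.84 and 0.03.

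The 4-array profiles of the members were compared as root mean square distances between log2 values centred on each gene's mean. Of 45 pairs the closest were Atf5 with Ppp1r15a (0.17), Atf3 with Gdf15 (0.18) and Ddit3 with Sesn2 (0.19), and the farthest was Atf3 with Atf4 (1.602). Against the median profile of the members, Atf5 lay at 0.10, Ppp1r15a at 0.16 and Trib3 at 0.21, and Atf4 at 0.81 and Atf3 at 0.79 were the farthest. Among 12857 genes with a symbol that were well above background on all arrays, the 6 outside the members with the closest profile were Cth (0.06), Aldh1l2 (0.07), Cyb5r2 (0.10), Ciart (0.10), Creb3l1 (0.11) and Arc (0.12). Cth makes cysteine from cystathionine, Aldh1l2 is a mitochondrial folate enzyme, Ciart is a circadian repressor, Creb3l1 is a membrane-bound stress factor and Arc is a neuronal activity gene. These distances rest on 4 arrays, and 4 of the 6 genes were again among the closest 6 under quantile normalization and 2 of 6 under normexp background correction.

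Other genes of the pathway were followed in 9 lists. Their upward counts with 4-OHT are to be read against the 7.75% of all measured genes at least 2-fold above vehicle. Downward counts with vitamin E are to be read against 8.81%, and upward counts with lutein against 3.43%. On spike-in scaling 1192 of 22084 genes were higher and 1647 lower with 4-OHT, and 1225 of 22160 were lower with vitamin E. The eIF2 kinases and their sensors stand furthest upstream. Of 10 measured, 1 gene passed 2-fold upward with 4-OHT and 0 downward, a share near that of all genes, and the list median was -0.23. That gene was Eif2ak3 (PERK), the kinase of the endoplasmic reticulum, with a scaled signal of 3.26 in vehicle, 7.11 with 4-OHT, 3.34 with vitamin E and 6.53 with lutein. Its log2 difference was 1.12 with 4-OHT and -1.09 when vitamin E was added to it, and on spike-in scaling these were 0.88 and -0.74, both short of 2-fold. The kinase Eif2ak1 (HRI), at -0.47, and its mitochondrial relay Dele1, at -0.51, were the lowest named genes of the list, and both stayed short of 2-fold.

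Among 12 genes of eIF2, its exchange factor eIF2B and the eIF2 phosphatase, 0 were 2-fold higher or lower with 4-OHT, and the median was -0.22. Ppp1r15b and the eIF2 beta subunit Eif2s2 were the 2 genes of the list above 0. Eif2s2 was at 0.78, with 35.4 on the 4-OHT array, 35.03 with lutein, and 20.6 on both other arrays. Ppp1r15b, the constitutive counterpart of Ppp1r15a, was 1.97-fold higher with 4-OHT, and 2.18-fold lower again with vitamin E (log2 difference -1.12, or -0.78 on spike-in scaling). It was the only one of 7 measured paralogues of the members above 0. The list median of these paralogues was -0.60, with Chac2 at -0.93, Trib1 at -0.89 and Nupr1l at -0.61, so that the difference seen for Chac1, Trib3 and Nupr1 had the opposite sign in these relatives. This held on spike-in scaling, where the paralogue median was -0.85.

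Of 16 other ATF, CREB and C/EBP factors, 5 passed 2-fold upward with 4-OHT and 0 downward, and 7 passed it downward once vitamin E was added (5 on spike-in scaling). Cebpb, a partner of ATF4 and of CHOP, read 2.29, 18.6, 3.28 and 15.2 in vehicle, 4-OHT, vitamin E and lutein, an 8.14-fold difference between 4-OHT and vehicle. Creb3l1 was 6.73-fold, Cebpd 4.82-fold and the ATF3-related repressor Jdp2 3.75-fold higher. Cebpg, a heterodimer partner of ATF4, was the fifth, at 1.85. The endoplasmic reticulum sensor Atf6 differed by 0.15.

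Of 15 measured among 16 other effectors of ATF4 and CHOP, 6 passed 2-fold upward with 4-OHT, 0 downward, and the median was 0.60. Tnfrsf12a, a receptor of the TNF family, was 15.7-fold higher, the secreted glycoprotein Stc2 8.15-fold, the translation repressor Eif4ebp1 6.73-fold and the proapoptotic Bbc3 (PUMA) 4.92-fold. With vitamin E, Tnfrsf12a was 13.4-fold below 4-OHT alone and Eif4ebp1 5.11-fold. The other higher genes were Adm2, not well above background in vehicle and at least 8.71-fold higher, and the oxidase Ero1a at 2.30-fold, which was 0.95 on the log2 scale with spike-in scaling and no longer counted. Ddit4, an inhibitor of mTORC1, differed by 0.16, and Car6 was not measured.

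Amino acid synthesis and import genes had the largest share past 2-fold of the lists. Of 20 measured, 15 passed 2-fold upward with 4-OHT and 0 downward, with a median of 1.70, and 14 passed it downward with vitamin E, with a median of -1.51. On spike-in scaling 13 passed upward and 1 downward with 4-OHT, and 11 downward with vitamin E. The cationic amino acid transporters Slc7a3 and Slc7a1 were 11.7-fold and 6.21-fold higher, Cth 5.89-fold and the mitochondrial folate enzyme Mthfd2 5.71-fold. On the lutein array 14 of the 20 were 2-fold or more above vehicle. Of the 15, the cystine transporter Slc7a11 and Pycr1, a proline synthesis enzyme, were not well above background in vehicle, so their values of 5.00-fold and 2.06-fold are lower bounds.

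Genes of 3 neighbouring stress responses were followed as well. Of 16 endoplasmic reticulum chaperones and ATF6 or XBP1 targets, 1 passed 2-fold upward with 4-OHT, a share near that of all genes, and the median was -0.05 (0.11 under quantile normalization). That gene was Herpud1, a factor of protein degradation at the endoplasmic reticulum, at 2.81-fold, while the chaperone Hspa5 (BiP) was at 0.63 and Pdia4 at -0.61. Of 10 mitochondrial chaperones and proteases 0 passed 2-fold in either direction, and the median was -0.28, with Hspa9 and Lonp1 both at 0.61 and Trap1 at -0.72. Of 14 p53 targets and GADD45 genes 5 passed 2-fold upward (4 on spike-in scaling), and the median was 0.10, or -0.14 on spike-in scaling and 0.28 under quantile normalization. Gadd45b was 18.0-fold higher, Gadd45g 4.11-fold, Cdkn1a 3.00-fold, Bbc3, which is also in the effector list, 4.92-fold, and Pmaip1, not well above background in vehicle, at least 2.17-fold, a bound that was 0.87 on the log2 scale with spike-in scaling and so no longer counted. Mdm2, a main p53 target, differed by 0.09.

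**Figure D4:**
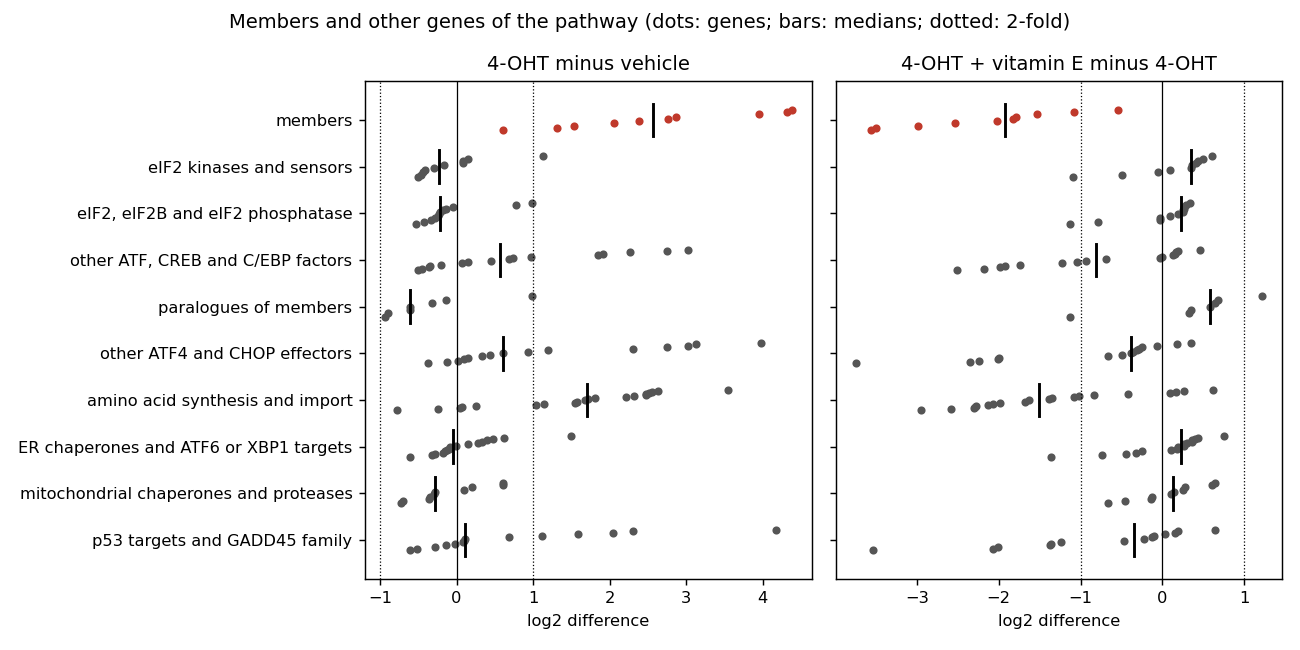
Log2 difference of each measured gene (dots) for the members and the 9 lists, with list medians as bars and 2-fold as dotted lines, for 4-OHT minus vehicle and for 4-OHT with vitamin E minus 4-OHT. Member medians are 2.57 and -1.93, and the list with the next largest medians is amino acid synthesis and import, at 1.70 and -1.51.

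Marker genes of retinal and other cell types were summed beside these results, and their part in the member differences was not tested. The summed scaled signal of the 9 rod markers was 1038 in vehicle, 509.9 with 4-OHT, 852.5 with vitamin E and 649.2 with lutein, the reverse of the members' order. The 6 Müller glia markers summed to between 19.2 and 21.4, but 1 of them, Sox9, had the members' order, with 0.35 in vehicle, 0.83 with 4-OHT, 0.47 with vitamin E and 0.72 with lutein. The 5 bipolar cell markers summed to 208.3 in vehicle and to between 275.6 and 282.8 on the other arrays. The 6 amacrine and horizontal cell markers summed to between 75.5 and 86.8, the 5 ganglion cell markers to 5.10, 3.51, 4.49 and 4.39 in vehicle, 4-OHT, vitamin E and lutein, and the 6 cone markers to 3.68, 3.33, 3.88 and 2.72. Among the cone markers Arr3 had the members' order, with 0.30, 1.18, 0.44 and 0.81 on the same arrays. Gnat2 had the reverse order, with 2.34, 0.95, 2.17 and 1.08, and the other cone markers had neither. Most of the amacrine and horizontal sum came from Slc6a9, at 68.6 in vehicle and 70.5 with 4-OHT, while Gad1 read 2.73 and 1.35. The 5 endothelial markers summed to between 20.8 and 23.6, nearly all from Kdr, while Cdh5, Tek and Vwf were not well above background. The 7 microglia and macrophage markers summed to 12.5, 30.6, 12.5 and 16.7 in vehicle, 4-OHT, vitamin E and lutein. Itgam carried most of that sum, at 10.02, 28.2, 10.4 and 14.2, while Aif1, Cx3cr1, P2ry12 and Ptprc were never well above background. The 6 pigment epithelium markers summed to 2.82, 11.5, 8.46 and 10.3, mostly from Dct, and Rpe65, Best1 and Mlana were likewise never well above background. The 5 fibroblast markers summed to at most 0.42 and the 4 pluripotent cell markers to at most 2.88.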

How the data were processed

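RNA of 4 groups was hybridised to one-colour Agilent arrays, 1 array per group, and, per the submitters' processing notes, scanned spots were quantified in Agilent Feature Extraction 10.7.3.1. The deposited intensity was background-subtracted and detrended within each array, with no normalization between arrays, per the file headers, which give probe positions on mm9. The authors' deposited value table holds linear signal, found by comparison with the scanner values to be the intensity divided by 1 number per array (vehicle 494.2, 4-OHT 434.1, vitamin E 468.9, lutein 479.2). Its column medians were 0.079, 0.095, 0.074 and 0.085. Why those divisors were chosen is not given in the sources used here. The lutein file was saved at 3 significant digits with 57 altered gene names, so names came from the vehicle array.

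Intensity was divided by the 75th percentile of 59305 gene spots per array and log2-transformed, after control spots and 137 to 164 outlier spots per array were left out. The probe with the highest mean stood for a gene. A gene was measured if well above background on at least 1 array of a pair (51.3% to 54.5% of gene spots were). Where a probe was dim on 1 array, the lowest detected signal of single-spot probes there, or its own value if higher, took its place, and the fold is a lower bound. RefSeq accessions (GRCm38.p6) matched 28331 of 55681 probes. Exons and UTRs on mm9 were not used here. With 1 array per group, the number of arrays limits precision.

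Members and lists were chosen with earlier results of these data known. All members are named. From each list, up to 4 genes with the largest 4-OHT difference and up to 2 with the largest vitamin E difference were open to naming, among genes well above background on both arrays. By this filter or by rank, Cebpg, Atf6, Adm2, Ero1a, Ddit4, Car6, Slc7a11, Pycr1, Pmaip1 and Mdm2 fall outside that rule. So do the markers Sox9, Arr3, Gnat2, Slc6a9 and Gad1. All of these were chosen after their values were seen.

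The 10 alternatives were 1.5-fold and 4-fold limits, median scaling over commonly detected probes, scaling to 8 of 10 spike-in probes, quantile normalization, normexp background correction with offset 50, averaging each gene's probes, requiring detection on both arrays, dropping the filter, and the authors' table. Python 3.11.15, NumPy 2.4.6, pandas 2.3.3, matplotlib 3.10.9, R 4.3.3 and limma 3.58.1 were used. The steps were tested on simulated data.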

Additional observations from a re-analysis of the deposited data

How the results depend on the processing

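No member difference of 2-fold or more changed direction under any of the 10 alternatives, but only quantile normalization and normexp background correction could have turned one. The fold limits change no value. Scaling on the median, on spike-in probes or by the authors' divisors shifts all genes of a comparison about alike, by less than 2-fold. The detection settings and probe averaging are treated below. The small lutein and vitamin E differences whose sign turned are named above. The count for 4-OHT against vehicle ranged from 7 at the 4-fold limit to 10 at 1.5-fold. At the 4-fold limit 5 members were lower with vitamin E than with 4-OHT, 4 lower with vitamin E than with lutein, and 0 higher with vitamin E than in vehicle. At the 1.5-fold limit 1 was lower with lutein than with 4-OHT (Nupr1) and 3 were higher with vitamin E than in vehicle. That last count was 2 on spike-in scaling and 2 with the authors' table, against 1 as reported. Spike-in scaling moved the median of all genes from -0.06 to -0.31 for 4-OHT minus vehicle, and the member medians to 2.33 for 4-OHT minus vehicle, -1.58 for vitamin E minus 4-OHT, -0.026 for lutein minus 4-OHT and -1.59 for vitamin E minus lutein. Relative to all genes the first of these was 2.64 with or without spike-in scaling, which shifts all genes of an array alike. Under quantile normalization the vitamin E minus 4-OHT median was -2.07. The cause of these shifts was not tested. Of 480 member gene values 420 moved by less than the spot SD, and 60 by more, 40 of them on spike-in scaling. Many of the 420 could not move. All member probes were well above background on every array, so requiring detection and dropping the filter left every member value as it was. Averaging probes could change only Atf4. The backgrounds moved more: of all genes, 2405 were 2-fold apart for 4-OHT minus vehicle, 1253 under normexp, 4633 with no filter, 6324 at 1.5-fold and 458 at 4-fold. For vitamin E minus 4-OHT, lutein minus 4-OHT, vitamin E minus vehicle, lutein minus vehicle and vitamin E minus lutein, in that order, 2281, 1097, 656, 1051 and 890 were 2-fold apart as reported. Under normexp these were 1178, 391, 180, 489 and 322, and with no filter 4682, 3476, 2435, 3272 and 3093. At 1.5-fold they were 5354, 2858, 2355, 3201 and 2366, and at 4-fold 552, 115, 96, 208 and 183. With detection on both arrays the last 4 were 690, 347, 677 and 484. No paired analysis was possible because there was 1 array per group, and no replicate could be left out. Spot noise is the only error used here. The scanning software's own error estimate was at least 10% of the signal for each member probe on each array. It was highest for Nupr1 in vehicle, at 10.6%. Differences near the spot SD were not judged against that estimate. Nupr1, at 186.3 intensity units in vehicle, was the member nearest to background.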

Other observations

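The small differences of vitamin E from vehicle and the small differences of lutein from 4-OHT alone use 4 different arrays and share none. The 5 members with the largest vitamin E minus vehicle difference (Nupr1, Ppp1r15a, Atf3, Atf5 and Gdf15, 0.45 to 1.33) were also the 5 with the lowest lutein minus 4-OHT difference (-0.84 to -0.27). The other 5 (Chac1, Sesn2, Atf4, Trib3 and Ddit3) lay between 0.01 and 0.33 in the first comparison and between -0.15 and 0.03 in the second. Across the 10 genes Pearson's r was -0.87 and Spearman's rho -0.79, and without Nupr1 r was -0.75 over 9 genes. These are descriptions across genes, which are not independent replicates. The border of the split was narrow. In the first comparison Gdf15 (0.45) lay next to Chac1 (0.33), at a spot SD of 0.11. In the second Atf5 (-0.27) lay next to Sesn2 (-0.15), at a spot SD of 0.13. Atf3, Nupr1 and Gdf15 also had the largest 4-OHT minus vehicle differences, 3.95 to 4.38. Chac1, at 2.87 there, exceeded Ppp1r15a at 2.76 and Atf5 at 2.38. The part of response size in the split was not tested. The split was noticed after the values were seen, and no test was made.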
